A study of Mus musculus with 173 samples.

Results

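A set of 6 genes of lysophospholipid signalling was followed through single cells of the adult mouse dentate gyrus: the receptors Lpar1 and S1pr1, the enzyme Enpp2, the phosphatases Ppap2a and Ppap2b, and the hydrolase Pla2g7. They were chosen by name from a table of 23307 genes, with their levels in these cells already known, so every value below is a description and none carries a test. All 6 passed the low-value filter, a TPM of at least 1 in at least 5% of libraries, which kept 12007 genes. TPM is a share of transcripts corrected for transcript length and scaled to the same total in each library. The animals were C57BL/6 mice aged 8 to 12 weeks, and each library was the RNA of 1 cell. The titles sort the libraries into the classes N (26 libraries), R (4) and C (all the rest of 172), whose letters are not spelled out. All classes share the same strain, tissue and age label, and no treatment is named for any of them. The table holds a row for the cyan fluorescent protein eCFP, whose median was 8739 TPM in C but 44.6 TPM in N and 12.0 TPM in R, and the promoter that drove it is not given in the sources used here. The design text states an interest in quiescent neural stem cells of the hippocampus and the cells they give rise to.

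Lysophosphatidic acid (LPA) and sphingosine 1-phosphate (S1P) are lipid messengers that act from outside the cell on G protein-coupled receptors. Autotaxin, the secreted product of Enpp2, makes LPA from lysophosphatidylcholine, and lipid phosphate phosphatases in the plasma membrane end the signal by removing the phosphate. Pla2g7 encodes the secreted platelet-activating factor (PAF) acetylhydrolase, which cleaves PAF and oxidised phospholipids and releases a lysophospholipid. In the adult dentate gyrus, Lpar1 is known as a marker of neural stem and progenitor cells, and S1pr1 and Ppap2b are known from astroglia.

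TPM keeps no sequencing depth. Libraries held between 1600 and 7192 genes with a TPM of 1 or more. Of all values 78.5% were exact zeros, and Gapdh, which every cell uses, was listed at 0 in 2 libraries, so a gene at 0 is only said to be listed at 0. The labels name no animal, so cells cannot be treated as replicates of animals, each class counts as 1 sample, and SDs are between cells. The labels also give no date or batch. Markers placed the classes as follows. On the log2(TPM + 1) scale, C cells averaged 5.42 ± 1.41 (SD) for the stem cell list and N cells 2.18 ± 0.94, and the mature neuron list lay between 5.41 and 7.72 in the 4 R libraries. Class N was mixed: 9 of its libraries had a mean of at least 4 for oligodendrocyte precursor or oligodendrocyte markers, 6 for endothelial markers and 3 for mural markers, a level set after the values were seen. The library N11 had the highest astrocyte list mean of all classes, 8.76, and it is named beside each value it decides. Its stem cell list mean, 5.96, lay above the C average, so that list did not set it apart from C cells.

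Between classes the receptors, Ppap2b and Pla2g7 were higher in C than in N, Enpp2 was lower, and Ppap2a was almost always at 0. A gene was called past the fold when the difference of mean log2(TPM + 1) was at least 1 in size. By that rule 4 of the 6 genes were higher in C, beside 9.98% of all tested genes, and 1 was lower, beside 4.19%. The median difference of the 6 genes was 2.68, and that of all tested genes was 0.17. When libraries were rescaled so that detected genes had an equal median, 7.54% of all genes were higher and 7.48% lower, and the median of all genes moved to 0.06. The same 4 genes remained past the fold on that scale. On mean TPM the shares of all genes were 35.5% and 17.97%. For the 4 R libraries against C, 1 gene was higher, beside 20.9% of all genes, and 2 were lower, beside 22%. With rescaled libraries these counts were 0 and 5, beside 13% and 29.4% of all genes, and the median of all genes moved from -0.36 to -0.51. On mean TPM they were 1 and 4, beside 16.6% and 62.2%.

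**Figure D1:**
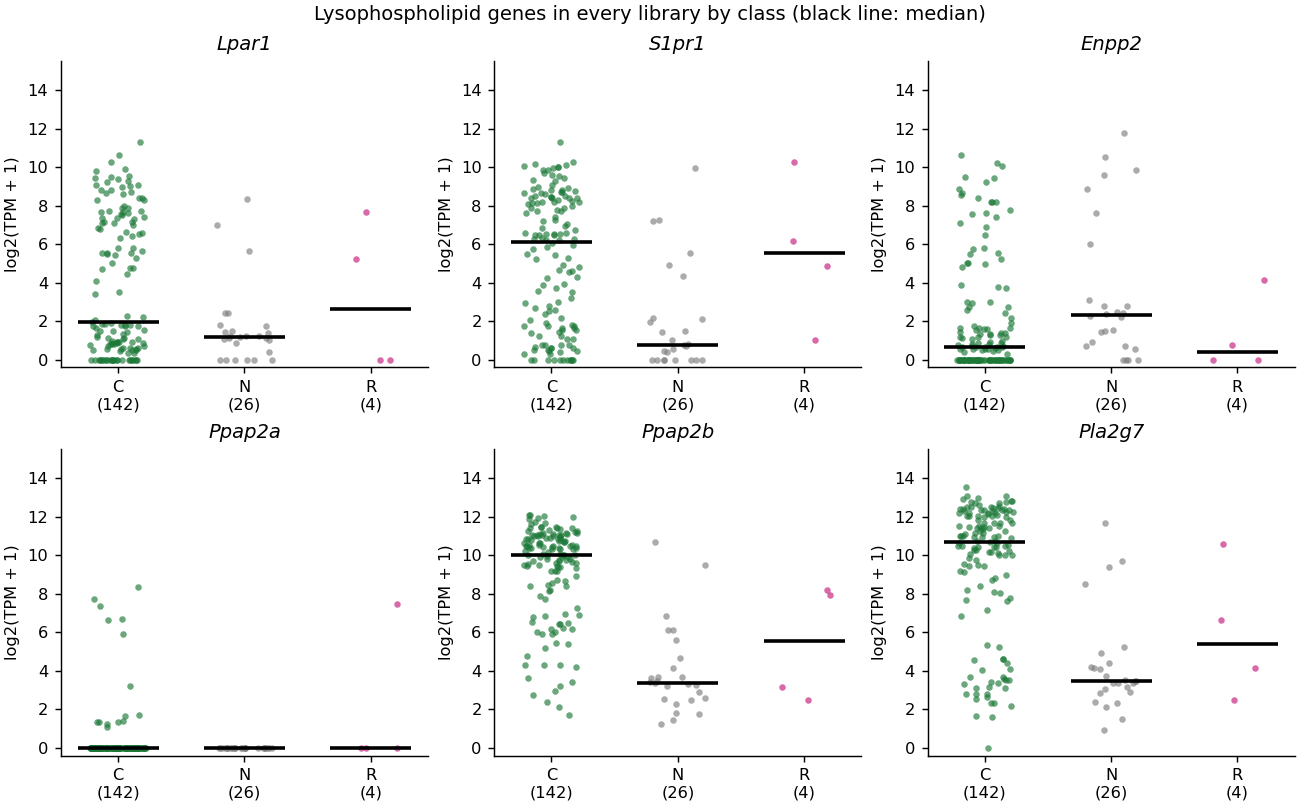
Level of each of the 6 genes in every library, as log2(TPM + 1), for all C, 26 N and 4 R libraries; each point is 1 cell and the black line is the class median. The median of Ppap2b was 1046 TPM in C against 9.43 TPM in N, and that of Pla2g7 was 1658 TPM against 10.1 TPM, while Ppap2a lay at 0 in most cells.

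S1pr1, the S1P receptor that couples to Gi proteins, was detected in most C cells. In C it ran from 0 to 2512 TPM with a median of 69.2 TPM, and 81.7% of cells reached a TPM of 1. In N the range was 0 to 1002 TPM with a median of 0.73 TPM, and 12 of 26 libraries (46.2%) reached that level. The 4 R libraries had 28.7, 1.07, 69.9 and 1208 TPM. The classes overlapped: 3 N libraries lay above the C median, and 26 C cells lay below the N median. Mean log2 values differed by 3.16 between C and N, which placed S1pr1 70th of 12007 genes, and by 0.39 between R and C. The latter turned to -1.02 with rescaled libraries and to -1.17 without R4, and it was 1.90 without R2. The highest N value, 1002 TPM, belonged to N11, and without that library the difference was 3.47. S1pr1 is also a known endothelial receptor. In the 6 N libraries with high endothelial markers it ran from 2.87 to 152.9 TPM, with a median of 37.5 TPM, and in the 3 with high mural markers it stayed below 1 TPM.

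Lpar1, a receptor for LPA, was found in some C cells at high levels and in others hardly at all. Its level in C ran from 0 to 2521 TPM, with a median of only 2.87 TPM and an upper quartile of 161 TPM. A TPM of 100 was reached by 45 C cells (31.7%, exact Clopper-Pearson 95% interval 24.1 to 40.02), and 24 cells were listed at 0. At a TPM of 1 the share was 64.8% in C (56.3 to 72.6) and 69.2% in N (48.2 to 85.7), the opposite order, with intervals that overlap. In N it ran from 0 to 319.8 TPM with a median of 1.30 TPM, and 2 of 26 libraries reached 100 TPM (7.69%, interval 0.946 to 25.1). Those intervals cover counting error only. R1 had 205.7 TPM, R3 had 36.4 TPM, and R2 and R4 were listed at 0. Lower values therefore overlapped widely between classes, and 55 C cells lay below the N median. The difference of mean log2 values was 2.20 for C minus N and fell short of the fold for R minus C (-0.67). Over the alternatives the R minus C value ran from -2.15, without R1, to 2.37, among libraries with at least 3000 genes. The latter setting kept only R1 and R3 of class R, the R libraries with Lpar1 above 0. Without R2 or without R4 the R minus C value was 0.41. Both N libraries above 100 TPM, N17 with 319.8 TPM and N25 with 126.2 TPM, were those with the highest oligodendrocyte marker means (11.1 and 11.6). Mature oligodendrocytes are a known site of Lpar1 expression. Among the 6 C cells high in oligodendrocyte precursor markers, by contrast, Lpar1 did not exceed 2.39 TPM. Without all 16 libraries high in either oligodendrocyte lineage list, the difference of C and N was 2.93.

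Enpp2, the LPA-producing enzyme, was the member with a higher level in N. In C it ran from 0 to 1568 TPM with a median of 0.59 TPM, and 58 cells were listed at 0. In N it ran from 0 to 3425 TPM with a median of 4.08 TPM, and 4 of 26 libraries were listed at 0. R1 had 16.8 TPM, R3 had 0.72 TPM, and R2 and R4 were listed at 0. The N range enclosed the C range, and 21 of 26 N libraries lay above the C median. The difference of mean log2 values was -1.47 for C minus N, the 182nd lowest of 12007 genes, and -0.83 for R minus C. The latter ran from -3.71 on mean TPM to 0.39 among libraries with at least 3000 genes, which kept only R1 and R3 of class R. Without R1 the R minus C value was -1.81.

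Libraries high in markers of the oligodendrocyte lineage often had high Enpp2, but most C cells with high Enpp2 were not among them. Over all C cells its rank correlation was 0.25 with the oligodendrocyte precursor list and 0.34 with the oligodendrocyte list. In the 6 C cells whose oligodendrocyte precursor markers averaged 4 or more, Enpp2 ran from 87.5 to 1568 TPM with a median of 484 TPM. A 7th C cell, high in oligodendrocyte markers, was listed at 0. Of the 19 C cells that reached 100 TPM, 14 were among the other C cells, whose median was 0.57 TPM and highest value 1166 TPM. In N the 9 libraries of the lineage had a median of 191.9 TPM, and 5 of them reached 100 TPM. The other 17 N libraries had a median of 1.93 TPM, and only N5, with an endothelial list mean of 5.08, reached 100 TPM (768.9 TPM). The 2 libraries richest in oligodendrocyte markers had 3425 TPM (N25) and 1447 TPM (N17). The relation was not uniform: N1, N2, N20 and N23 were in the lineage group with 0, 6.03, 5.84 and 0.63 TPM. Without the 16 lineage libraries the difference of C and N was -0.40, short of the fold but of the same sign. The marker level that picks these libraries was set after the values were seen. Choroid plexus cells also make much autotaxin. Of 8 markers for them, Aqp1 and Kcne2 were listed at 0 in all libraries, and Ttr reached a TPM of 1 in 2 C, 0 N and 1 of 4 R libraries. Kl reached it in 19 C and 6 N libraries, at up to 29.7 TPM, and Kcnj13 in 6 C libraries and 1 N library, at up to 528.5 TPM. Folr1, Clic6 and Otx2 did so in at most 1 library of a class. The mean of that list did not exceed 1.10 in C, 1.69 in N and 1.11 in R, and its part in the Enpp2 levels was not tested. Enpp2 RNA in a cell says nothing of where the secreted enzyme acts.

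**Figure D2:**
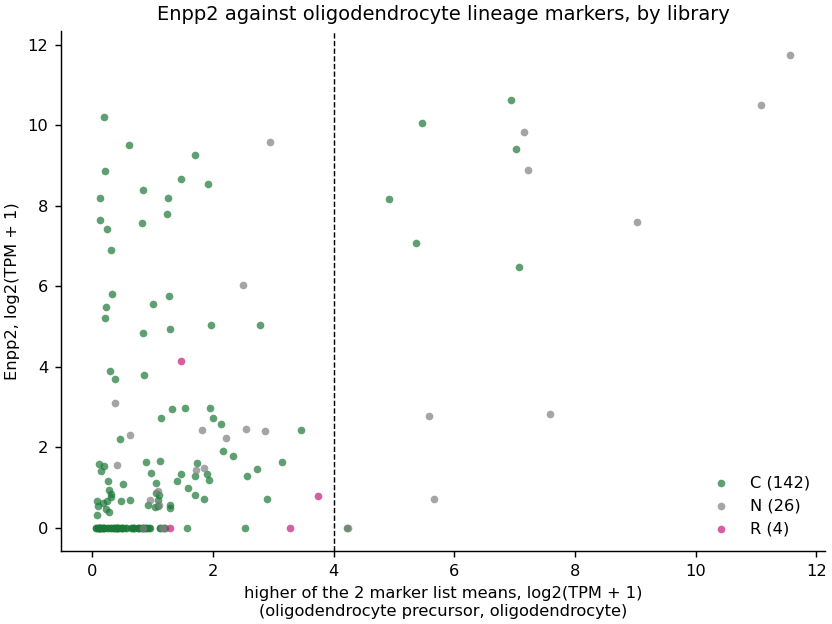
Enpp2 in each library, as log2(TPM + 1), against the higher of its mean levels of oligodendrocyte precursor and oligodendrocyte markers on the same scale; points are cells coloured by class and the dashed line marks a mean of 4. Right of the line 10 of 16 libraries reached 100 TPM, while to its left 14 C and 1 of 17 N libraries did.

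The phosphatases stood far apart from each other. Ppap2b (Plpp3 in current nomenclature, the lipid phosphate phosphatase LPP3) had a value above 0 in every library. In C it ran from 2.24 to 4339 TPM with a median of 1046 TPM, and 76 cells reached 1000 TPM. By mean TPM it was 90th of 23306 genes in C, eCFP left out. In N it ran from 1.37 to 1614 TPM with a median of 9.43 TPM. The R libraries had 246, 4.59, 7.94 and 291 TPM. At 100 TPM the classes separated in part, with 80.99% of C cells (interval 73.6 to 87.1), 3 of 26 N libraries (11.5%, 2.45 to 30.2) and 2 of 4 R libraries. The mean log2 level was 9.17 ± 2.49 in C, 3.99 ± 2.30 in N and 5.45 ± 3.05 in R. The C minus N difference of 5.18 was the 8th highest of 12007 genes, and the R minus C difference was -3.73. All R libraries lay below the C median, and N11 was the only N library above it. The other high N libraries were N14, a library with mural markers at 727.7 TPM, and N20, with oligodendrocyte lineage markers at 111.8 TPM.

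Ppap2a (Plpp1, the related phosphatase LPP1) was listed at 0 in all but 15 C cells, in all 26 N libraries and in 3 of 4 R libraries. Its highest C value was 327.5 TPM, 4 C cells reached 100 TPM, and R3 had 178.6 TPM. No fold is given against N, where it was listed at 0 throughout. The R minus C difference of 1.47 came from R3 alone and was -0.40 without it.

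Pla2g7 had the highest level of the 6 genes in C. It ran from 0 to 11877 TPM in C with a median of 1658 TPM, was listed at 0 in 1 cell, and was 31st of 23306 genes by mean TPM. In N it ran from 0.93 to 3207 TPM with a median of 10.1 TPM. The R libraries had 16.8, 4.68, 97.3 and 1523 TPM. A TPM of 100 was reached by 78.9% of C cells (interval 71.2 to 85.3), 4 of 26 N libraries (15.4%, 4.36 to 34.9) and 1 of 4 R libraries. Mean log2 levels were 9.40 ± 3.48 in C, 4.30 ± 2.62 in N and 5.96 ± 3.51 in R. The difference of 5.11 between C and N was the 10th highest of all tested genes, and R minus C was -3.44. As for Ppap2b, N11 was the single N library above the C median and all R libraries lay below it. The other N libraries above 100 TPM were N2 and N15, high in oligodendrocyte precursor markers, and N8, with a neuroblast list mean of 5.86. Over all classes, 12 libraries were high in precursor markers, and 5 of them reached 100 TPM of Pla2g7. Their median was 15.8 TPM and their highest value 3260 TPM. Low values were present nearly everywhere: in the 13 vascular-like libraries described below Pla2g7 ran from 1.79 to 36.97 TPM, so a TPM of 1 did not separate cell types for Pla2g7 or Ppap2b. What such low values stand for was not tested.

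Because Ppap2b and Pla2g7 shared their high level in C and their low level in cycling cells, the bases before their start sites are shown here. The sequences are the 250 bases upstream of the start in RefSeq's table for GRCm38.p6, a later build than that of the expression values, and 3 of the 6 genes (Lpar1, Ppap2b and Pla2g7) have an entry. The Ppap2b window lies at chr4:105157097-105157346 and the Pla2g7 window at chr17:43568201-43568450, both on the plus strand. Capitals mark matches, on either strand, to an NFI core site (TTGGC), a SOX core (ACAAT), an RBPJ core (TGGGAA) or a TATA box (TATAAA).
Ppap2b: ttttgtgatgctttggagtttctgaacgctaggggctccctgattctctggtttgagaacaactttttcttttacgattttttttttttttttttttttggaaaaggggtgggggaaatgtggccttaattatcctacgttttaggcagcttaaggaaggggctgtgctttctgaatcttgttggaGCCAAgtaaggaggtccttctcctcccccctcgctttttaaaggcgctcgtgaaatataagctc
Pla2g7: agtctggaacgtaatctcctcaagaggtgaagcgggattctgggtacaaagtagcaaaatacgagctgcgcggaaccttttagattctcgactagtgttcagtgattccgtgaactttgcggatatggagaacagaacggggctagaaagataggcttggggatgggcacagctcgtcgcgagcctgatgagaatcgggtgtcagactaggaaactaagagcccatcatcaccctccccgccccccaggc
The Ppap2b window held 1 match, the NFI core site, which starts 64 bases before the start site and which 41.5% of all 32851 windows also hold. The Pla2g7 window held none of the 4 motifs. The background shares were 27.7% for the SOX core, 21.6% for the RBPJ core and 12.4% for the TATA box. An E-box (CANNTG) was in neither window and in 66.2% of all windows. GC content was 42.4% for Ppap2b and 52.8% for Pla2g7, beside a median of 52.4%, and the windows had 6 and 14 CpG sites, beside a median of 6. These letters therefore showed no shared motif among those searched. For Lpar1 the table has 3 start sites, with GC contents of 62%, 70% and 41.6%, the first 2 windows overlapping. NFI core sites were found in 1 of them and SOX cores in another.

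Within C, the same cells often held several of these genes, but how far this exceeds what their own shares give was not tested. At a TPM of at least 100, Ppap2b was present in 80.99% of C cells, Pla2g7 in 78.9%, S1pr1 in 40.8% and Lpar1 in 31.7%. Ppap2b and Pla2g7 were present together in 71.1% of C cells and absent together in 16 cells. Of the 58 C cells with S1pr1 at that level, 57 also had Ppap2b and 54 had Pla2g7. Of the 45 with Lpar1, 41 had Ppap2b and 42 had Pla2g7. Both receptors were at 100 TPM in 24 cells. Across the C cells, Spearman's rank correlation was 0.55 for S1pr1 with Ppap2b, 0.49 for Ppap2b with Pla2g7, 0.38 for S1pr1 with Pla2g7 and 0.24 for Lpar1 with S1pr1. For Enpp2, the rank correlation with the other members lay between -0.05 and 0.20. Of the 19 C cells with Enpp2 at 100 TPM, 5 also had Lpar1 at that level, beside 31.7% of all C cells. All such correlations describe cells whose animals and batches are not given, and they carry no p.

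Cycling C cells had less of S1pr1, Ppap2b and Pla2g7. A C cell was called cycling when the mean of 36 S phase, G2 and mitosis genes was at least 2.5 on the log2 scale, which held for 24 C cells. This is a range of a score and not a cell type, and 5 cells, both sides counted together, lay within 0.5 of the limit. By the fold rule 0 of the 6 genes were higher in cycling cells, beside 15.6% of all tested genes, and 4 were lower, beside 4.88%. With libraries rescaled to an equal median those backgrounds were 9.77% and 10.4%, and the median of all genes moved from 0.03 to -0.17. On mean TPM, 15.7% of all genes were higher and 34.6% lower. Cycling cells had 3902 ± 839 genes detected and other C cells 3700 ± 947.

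**Figure D3:**
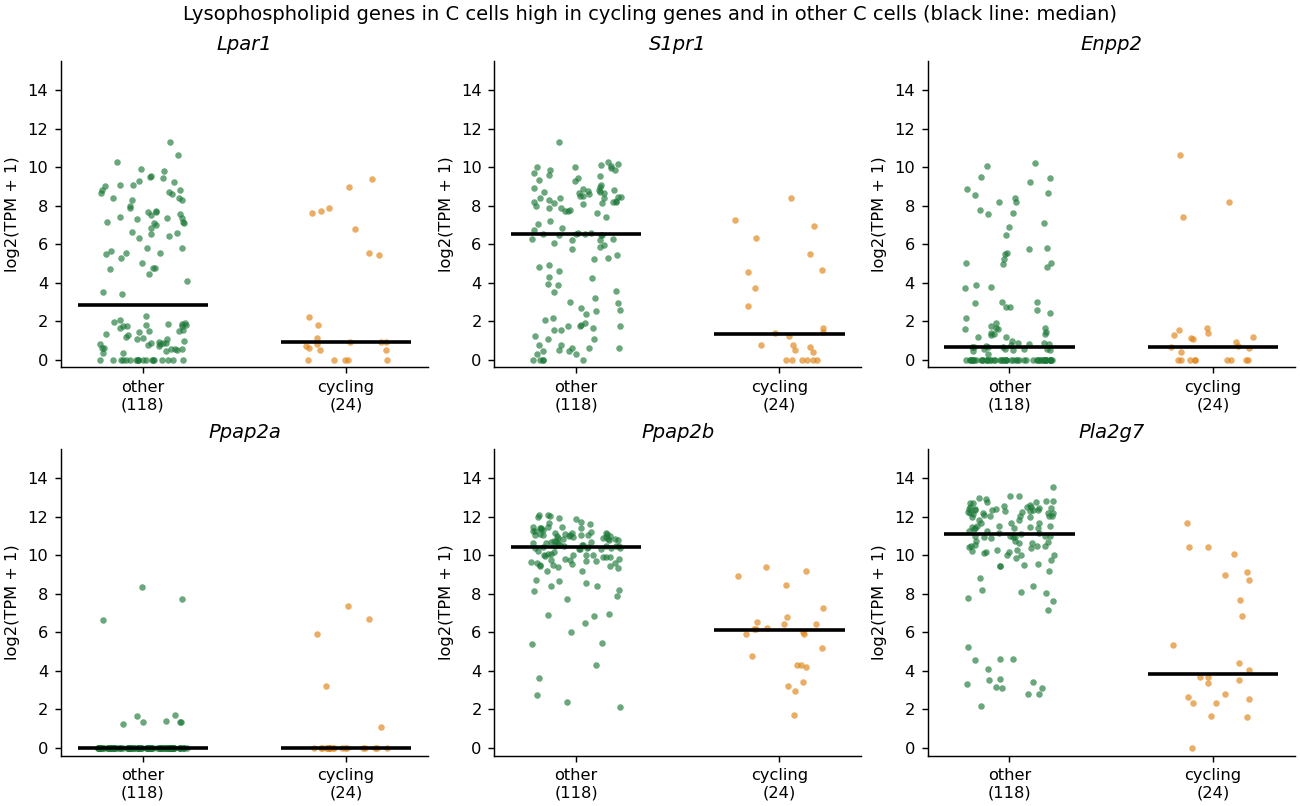
Level of each of the 6 genes, as log2(TPM + 1), in the 24 cycling and all other C cells; each point is 1 cell and the black line is the median. Medians of Pla2g7 were 2214 TPM in other and 13.6 TPM in cycling cells, and those of Ppap2b were 1383 and 67.7 TPM, whereas Lpar1 and Enpp2 overlapped widely.

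Pla2g7 had the largest difference of mean log2 values, whereas on mean TPM that of Ppap2b was larger (-3.48 against -2.94). Pla2g7 ran from 0 to 3260 TPM with a median of 13.6 TPM in cycling cells and from 3.54 to 11877 TPM with a median of 2214 TPM in the others. The difference of mean log2 values was -4.91, the 4th lowest of 12007 genes. Ppap2b ran from 2.24 to 671 TPM with a median of 67.7 TPM in cycling cells, and from 3.34 to 4339 TPM with a median of 1383 TPM in the others, a difference of -4.02 and the 11th lowest. The ranges overlapped for both genes. Together, they reached 100 TPM in 3 of 24 cycling cells and 98 others, and neither did so in 12 cycling cells and 4 others. Ppap2b was not at 0 in any cycling cell: all 24 had at least 2.24 TPM. S1pr1 had medians of 1.51 TPM in cycling cells and 90.045 TPM in the others, a difference of -3.30 and the 28th lowest. It reached 100 TPM in 12.5% of the former and 46.6% of the latter.

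Lpar1 had a smaller difference, -1.16, with medians of 0.91 and 6.80 TPM. It reached 100 TPM in 6 of 24 cycling cells (25%, interval 9.77 to 46.7) and in 39 others (33.1%, 24.7 to 42.3), shares whose intervals overlap. Its call past the fold was lost with a pseudocount of 10 (-0.69), with limits of 2 (-0.83) and 3 (-0.91) and on mean TPM (-0.96). Enpp2 differed by -0.55 and Ppap2a by 0.73, both short of the fold. The value for Enpp2 turned to 0.36 on mean TPM and was past the fold, at -1.06, without the oligodendrocyte lineage libraries, and Ppap2a was past it on mean TPM (1.22). Ppap2a reached a TPM of 1 in 5 of 24 cycling cells and 10 others, with medians at 0 in both.

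Across all C cells the relation to the stem cell list, 15 genes that include Slc1a3, Hopx, Gfap and Sox9, ran the opposite way. The rank correlation was 0.55 for Ppap2b, 0.52 for Pla2g7, 0.46 for S1pr1 and 0.31 for Lpar1, so 4 of 6 genes reached 0.3, beside 1.55% of all tested genes. It was 0.05 for Enpp2 and -0.07 for Ppap2a. In the 36 C cells lowest in the list, the medians were 84.7 TPM for Ppap2b, 11.8 TPM for Pla2g7, 1.81 TPM for S1pr1 and 0.81 TPM for Lpar1. In the 35 highest they were 1903, 2769, 219 and 55.5 TPM. Lpar1 and Pla2g7 had their highest medians in the group just below the top, at 113.5 and 3256 TPM. Against the cycling lists, the rank correlation was -0.48 for Pla2g7, -0.44 for Ppap2b and -0.34 for S1pr1, so 3 genes lay at -0.3 or lower, beside 0.508% of all genes, and -0.12 for Lpar1. The stem cell and cycling lists themselves had a rank correlation of -0.47 with each other. In the C cells below the cycling limit alone, the rank correlation with the stem cell list was 0.35 for Ppap2b, 0.34 for Pla2g7, 0.33 for S1pr1 and 0.23 for Lpar1, lower than over all C cells.

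Astrocyte markers moved with these genes too. The rank correlation with the 13-gene astrocyte list was 0.61 for Ppap2b, 0.55 for S1pr1 and 0.53 for Pla2g7, 3 genes at 0.3 or more beside 2.76% of all genes, and 0.19 for Lpar1. The list mean ran from 0.46 to 7.31 in C. Among single stem cell markers, Ppap2b had a rank correlation of 0.73 with Slc1a3, 0.44 with Sox9, 0.39 with Hopx and 0.28 with Gfap. Pla2g7 had 0.54 with Slc1a3 and 0.49 with Hopx. Lpar1 had its highest rank correlation among these with Sox9 (0.28). For Mki67, a marker of dividing cells, the rank correlation was -0.42 with Ppap2b, -0.37 with Pla2g7, -0.28 with S1pr1 and -0.17 with Lpar1. Whether high astrocyte markers stand for astrocytes among the C cells or for stem cells that share these genes was not tested.

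The genes were also set along an order of C cells that made no use of them. It was the first component, with 7.17% of the variance, of 1000 variable genes outside the lists in C cells of clusters named stem cell-like or progenitor-like, directed by the intermediate progenitor list. The rank correlation with a place in that order was -0.56 for Ppap2b, the 2nd lowest of 12007 genes, -0.42 for Pla2g7 and -0.39 for S1pr1, so 3 of 6 genes lay at -0.3 or lower, beside 0.999% of all genes. It was -0.09 for Lpar1, -0.06 for Enpp2 and 0.10 for Ppap2a. That place had a rank correlation of 0.48 with the cycling lists, 0.23 with genes detected and only -0.15 with the stem cell list.

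**Figure D4:**
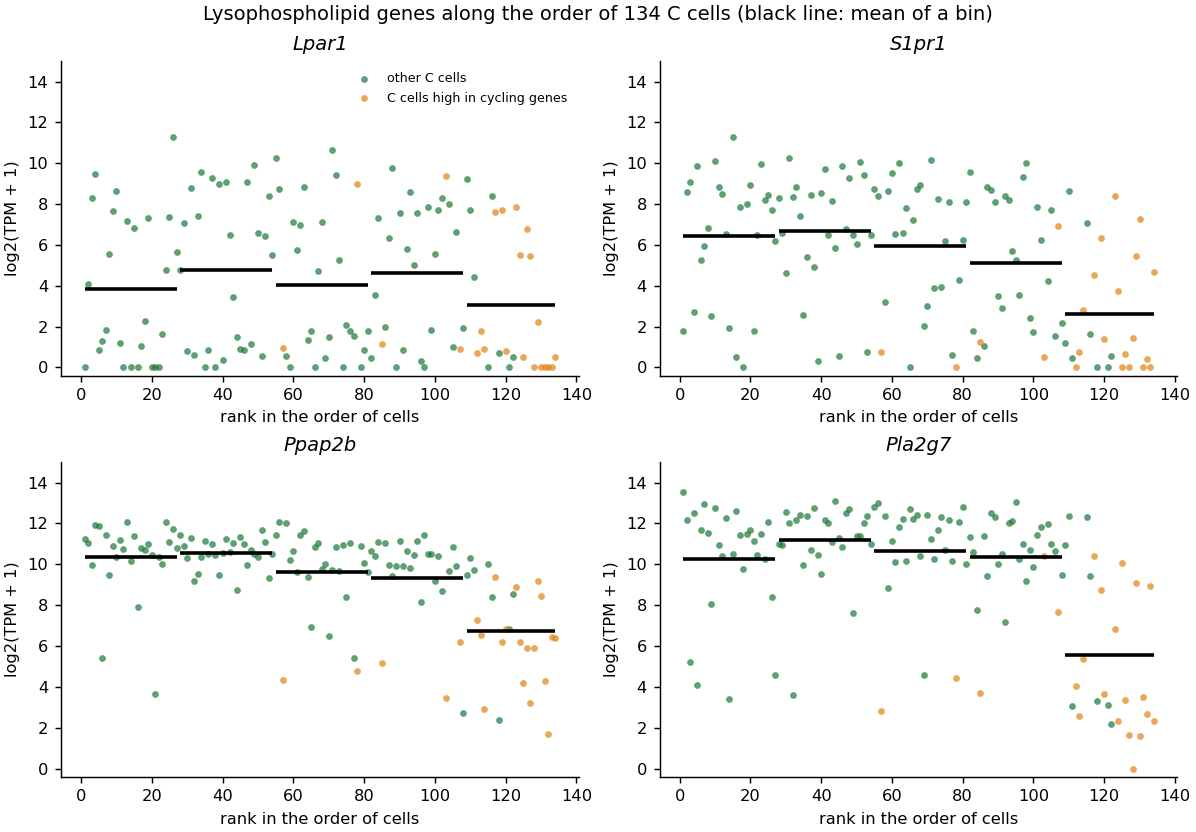
Level of Lpar1, S1pr1, Ppap2b and Pla2g7, as log2(TPM + 1), against the rank of C cells in an order made without these genes; points are cells, orange for those high in cycling genes, and each black line is the mean of 1 of 5 bins. Pla2g7 had bin means between 10.27 and 11.18 in the first 4 bins and 5.53 in the last, where most orange cells lie.

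The decline was not gradual for all of them. Bin means of Pla2g7 were 10.27, 11.18, 10.66 and 10.35 log2 units in the first 4 bins of 27 cells and 5.53 ± 3.79 (SD) in the last bin of 26. Ppap2b had 10.36, 10.53, 9.60, 9.35 and then 6.76 ± 2.47. S1pr1 had 6.44, 6.69, 5.92, 5.12 and then 2.60 ± 2.94. Cells within a bin spread widely, with SDs up to 3.25 for S1pr1 in the earlier bins. Lpar1 had 3.86, 4.76, 4.02, 4.64 and 3.06 ± 3.40, bins that differ by less than their SDs. In the last bin the S phase list had a mean of 4.14 and the intermediate progenitor list 3.19, beside 1.63 and 1.44 in the bin before.

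The clusters, made from all libraries without list genes or members, showed the same division. Ppap2b averaged 9.58 to 10.05 log2 units in the stem cell-like clusters 3, 6 and 8 (27, 33 and 54 libraries) and 6.06 and 5.70 in the progenitor-like clusters 1 and 2 (12 libraries each). Pla2g7 averaged 9.51 to 10.96 in the former and 5.80 and 4.37 in the latter. S1pr1 averaged 5.67 to 6.10 against 1.87 and 2.74, and Lpar1 4.08 to 4.63 against 2.499 and 2.08. The name progenitor-like is relative to the other clusters. In clusters 1 and 2 the intermediate progenitor list averaged 3.34 and 3.55, beside 0.86 to 1.38 in clusters 3, 6 and 8. The stem cell list averaged more there, 4.30 and 3.67. Cycling lists averaged 2.71 and 6.02, beside 0.87 to 1.05 in clusters 3, 6 and 8, so this division overlaps the cycling split. The cluster of lowest Pla2g7 was the vascular-like cluster 7 (3.64 ± 0.97, 13 libraries, 11 of class N), in which Lpar1 did not exceed 4.31 TPM. Enpp2 averaged 6.09 ± 3.905 in the oligodendrocyte lineage-like cluster 5 (12 libraries) and 0.41 to 2.49 in all others, the neuron-like cluster 4 included. The neuron-like cluster, which holds all 4 R libraries, 3 N and 2 C, had medians of 4.95 TPM for Ppap2b and 16.8 TPM for Pla2g7. Placement did not always follow the markers: N17 lay in cluster 8 and N11 in cluster 5.

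The genes most like each member over the C cells were found by rank correlation among 12001 other genes. For Ppap2b they were Slc1a3 (0.73), Slc1a2 (0.69) and Tspan7 (0.64), the first 2 being glial glutamate transporters. For S1pr1 they were Slc1a3 (0.51), Slc1a2 (0.51) and Aldoc (0.50), the last an aldolase of astroglia. Pla2g7 was closest to Clu (0.60), the secreted chaperone clusterin, Tspan7 (0.60) and Aldoc (0.59). All of these were detected in every C cell. Likeness was weaker for Lpar1, whose closest genes were Plcd4 (0.41), Slc20a2 (0.37) and Anxa7 (0.37). The closest for Enpp2 were E130309F12Rik (0.41), which is Lppr1, Dbpht2 (0.38) and Gatm (0.37), and the first was detected in only 15 C cells. For Ppap2a they were Hist1h1d (0.34), Men1 (0.32) and Hk1 (0.32), which were detected in 9, 21 and 21 C cells.

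Of the other genes of the pathway, 78 in the table, 53 passed the filter. In C against N, 3 of them were higher (5.66%, beside 9.98% of all tested genes) and 4 lower (7.55%, beside 4.19%), with a median difference of 0.08. On mean TPM these counts were 15 (28.3%, beside 35.5% of all tested genes) and 13 (24.5%, beside 17.97%). With rescaled libraries they were 2 (3.77%, beside 7.54%) and 6 (11.3%, beside 7.48%). Other receptors for LPA or S1P were sparse. Lpar4 and Lpar6, LPA receptors, were each detected in 9 C cells, S1pr3 in 15 and S1pr5 in 8, and Lpar5 was listed at 0 in all libraries. Lpar6 was the highest in N by mean TPM (147.5), though only 4 of 26 libraries had it. None of the other LPA or S1P receptors that passed the filter was past the fold for C minus N.

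Among the enzymes, the S1P-making kinase Sphk2 was lower in C (5.22 TPM against 39.9 TPM in N, a log2 difference of -1.09), and Agk, which makes LPA inside the cell, was short of the fold (0.73). The phosphatase-related gene D3Bwg0562e (Lppr4), known from neurons, differed by -1.62 between C and N and by 3.41 between R and C, and Ppapdc1a by -1.22 between C and N. Acyltransferases, which turn lysophospholipids back into phospholipids, went both ways, with Agpat5 at 1.79 and Agpat4 at -1.47 for C minus N. The Gi subunits Gnai2 (1.12) and Gnai3 (1.28), to which S1pr1 couples, completed the 3 genes higher in C, but Gnai2 was short of the fold with rescaled libraries (0.50) and on mean TPM (0.30).

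In cycling C cells 6 of these 53 genes were higher (11.3%, beside 15.6% of all tested genes) and 2 lower (3.77%, beside 4.88%). On mean TPM the counts were 5 (9.43%, beside 15.7%) and 28 (52.8%, beside 34.6%). With rescaled libraries they were 4 (7.55%, beside 9.77%) and 8 (15.1%, beside 10.4%). The share of lower genes was thus below that of all genes on the main scale and above it on the other scales. The intracellular PAF acetylhydrolase subunits Pafah1b2 (a difference of 1.82) and Pafah1b3 (1.72) were higher, which is opposite to Pla2g7 in the same family list, though on mean TPM both were short of the fold (0.36 and 0.81). Agpat5 (1.52), Lpcat3 (1.57), Gnai3 (2.03) and the Gq family gene Gna11 (2.37) were the other higher ones. Lpcat3 turned on mean TPM, with 45.2 TPM in cycling and 78.97 TPM in other C cells. Agpat5 (0.72) and Gna11 (0.84) were short of the fold on that scale, and Agpat5 (0.87) and Lpcat3 (0.73) were so with rescaled libraries. The phospholipases Pla2g16 (-2.24) and Pnpla8 (-1.14) were lower. Pla2g16 (0.39) was also the only one of the 53 with a rank correlation of at least 0.3 with the stem cell list, beside 1.55% of all tested genes.

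**Figure D5:**
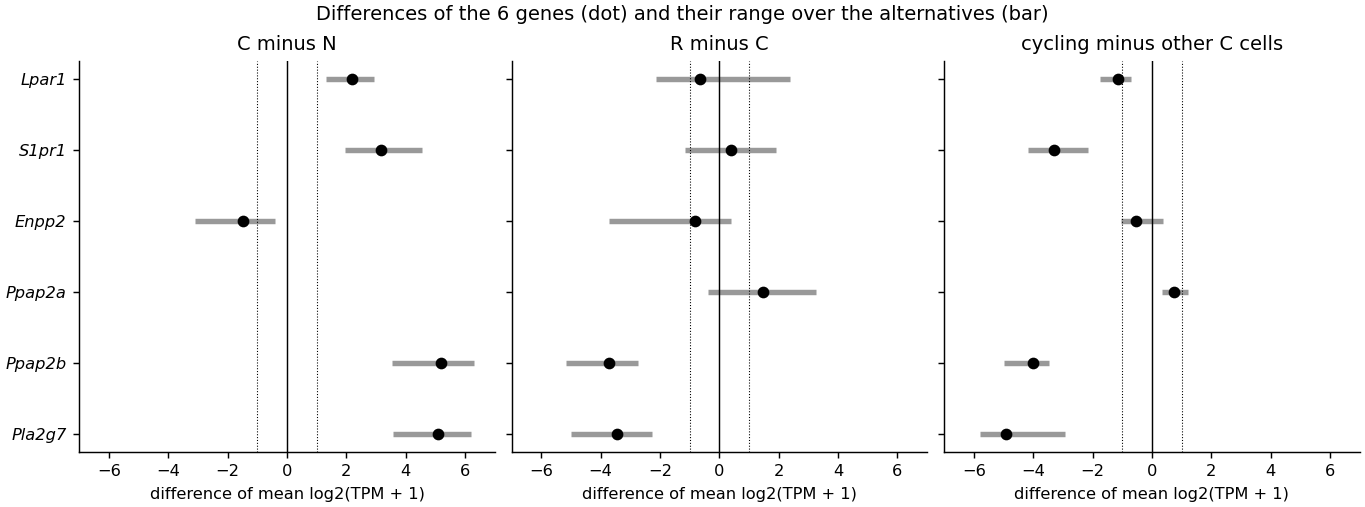
Difference of mean log2(TPM + 1) for each gene in 3 comparisons; the dot is the value in the text, the grey bar spans the planned and added alternatives, and dotted lines mark the fold of 1. Bars of Ppap2b and Pla2g7 lie wholly past the fold in every panel, those of the other genes cross 0 or the fold in at least 1 panel, and Ppap2a is not drawn for C minus N because every N library was at 0.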

How the data were processed

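Single cells of mouse dentate gyrus were profiled by RNA-seq with the NuGEN Ultralow V2 kit, per the labels' protocols. The authors deposited 1 table of TPM per gene and library, estimated with RSEM against mm9, per the submitters' processing notes; no version, annotation or cell filter is stated there. The 172 columns of the table stand against 173 labelled samples. A unique title was found for 171 of them, and C27, which fits 2 titles, entered class C with no sample of its own. Classes come from the first letter of the titles. No 2 columns were identical, and doublets were not called. TPM keeps no depth, so no count test or depth-based interval could be made, and Clopper-Pearson 95% intervals of shares of cells cover counting error only.

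Values were analysed as log2(TPM + 1), which understates differences of low genes. The minimum of 1000 detected genes (TPM of 1 or more) removed 0 libraries. With no animal named, no p-value was computed. Clusters came from Ward's method (8 clusters) on 15 components of 2000 variable genes without list genes, members or eCFP, and were named after their marker list means were seen. The genes, lists and limits were chosen with earlier results of these data known. Named pathway genes were to be the 2 of each list with the highest mean TPM; those past the fold were named after their values were seen. Older symbols were matched through RefSeq's gene table (84 of 86 pathway genes were found). Python 3.11.15, numpy 2.4.6, pandas 2.3.3, scipy 1.17.1 and matplotlib 3.10.9 were used. The code for differences and rank correlations was run on simulated normal log values with planted effects well above the limits used here. Those values lack the many zeros of these data, so that run does not show how the rules behave on them. Alternatives were other pseudocounts, mean TPM, rescaled libraries, gene minimums, limits, clusters, orders and left-out libraries.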

Additional observations from a re-analysis of the deposited data

Results flagged for a closer look

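In the R class, 1 library stood far from the other 3 on the TPM scale for 4 genes. S1pr1 was 1208.44 TPM in R4, Pla2g7 was 1522.55 TPM in R4, Enpp2 was 16.78 TPM in R1, and Ppap2a was 178.63 TPM in R3. In each case the gap to the nearest other library, divided by the range of the 4, was above Dixon's 95% critical value for 4 samples. On the log2(TPM + 1) scale this held for Ppap2a alone. It was listed at 0 in the other 3 R libraries, so its ratio is 1 whatever the value in R3. Chance flags about 1 in 20 groups of normally distributed values, and TPM of single cells is skewed, so that rate does not hold here. The causes were not tested.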

How the results depend on the processing

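Ppap2b and Pla2g7 stayed past the fold with the same sign under all 9 alternatives for C minus N and all 10 for each of the other comparisons. S1pr1 did so for C minus N and for cycling cells, and Lpar1 for C minus N. The lowest difference for Lpar1 was 1.32, when the neuron-like, vascular-like and oligodendrocyte lineage-like clusters were left out. Of class N that setting kept only N9, N10, N17 and N23, and all but N9 were high in oligodendrocyte lineage markers. The count of genes lower in C than in N went from 1 to 0 with a pseudocount of 10 and without the 16 oligodendrocyte lineage libraries, an alternative chosen after seeing the data. For R minus C, the count of higher genes was 0 with a pseudocount of 10 and with rescaled libraries. It was 2 among libraries with at least 3000 genes, which kept only R1 and R3 of class R. Leaving out each R library gave 0 to 2. The count of lower genes was 4 with a pseudocount of 0.1 and on mean TPM and 5 with rescaled libraries, and leaving out each R library gave 2 to 4. Ppap2a, at 1.47, went to -0.40 without R3 and reversed; over the 4 omissions it ran from -0.40 to 2.10. For cycling cells the count of higher genes was 1 with a pseudocount of 0.1 and on mean TPM, in both cases Ppap2a. The cause of the changes with scale was not tested. Leaving out C27, 6 or 10 clusters, and orders from 500 or 2000 genes changed no call. Other settings kept the counts of the 6 genes within 1.5 times. The scalings of the other pathway genes were also chosen after seeing the data.

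Without the low-value filter, genes past the fold were 5.14% higher and 2.21% lower for C minus N. For cycling cells they were 8.11% and 2.51%. No paired analysis was possible because titles of different classes share only a number that names a cell, and no result comes from a test. Unknown depth limits all low values: a TPM near 1 cannot be told from 0. The 4 R libraries give wide intervals (1 of 4 spans 0.631% to 80.6%). With no animal named, differences between animals and between classes cannot be told apart.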
